A study of Macaca mulatta and Mus musculus with 5 samples.

Results

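The data describe 36 cell cycle genes, 17 of DNA replication and 19 of mitosis, in single cells of meninges and spleen. The replication genes were MCM2 to MCM7, PCNA, TYMS, RRM1, RRM2, CDC6, CHEK1, HELLS, UHRF1, PCLAF, CDCA7 and GINS2. The mitosis genes were MKI67, TOP2A, CENPF, CENPE, CENPA, CCNA2, CCNB1, CCNB2, CDK1, BIRC5, AURKA, AURKB, BUB1, BUB1B, PLK1, TPX2, NUSAP1, UBE2C and KIF11. The members were taken by gene symbol, with earlier results of these data known. All 36 were among the 31017 genes of the mouse table. The macaque tables listed 13469 to 14062 genes each, of which 33 or 34 were members. CHEK1 and UBE2C were not listed in macaque, and CENPA was not listed in meninges channel 2.

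The mouse sample was 1 library of meninges from male C57BL/6 mice of 2, 21 and 48 days, pooled. The table used here carried no row that separates the ages, so the mouse gives 1 value per cell group and no test. The macaque samples were 2 channels of meninges and 2 of spleen from female Chinese rhesus macaques aged 4 to 8 years. No treatment or mutant allele is named for any group. The sources used here do not say whether the channels of a tissue came from different animals. The p-values below for comparisons between tissues therefore measure only the spread between channels, which may be technical. Those for comparisons of cell groups with each other come from a fit of many cell groups together. They measure the spread left there once shifts between channels are removed, which may also be technical.

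A dividing cell first copies its DNA and then segregates it. The MCM2 to MCM7 proteins form the ring-shaped helicase that is loaded onto replication origins with the help of CDC6 and then works with GINS2, a subunit of the GINS complex. PCNA is the sliding clamp of the replicative polymerases, PCLAF binds it, and TYMS, RRM1 and RRM2 supply nucleotides. Most mitosis genes are transcribed later, towards the G2 phase and division: cyclins (CCNA2, CCNB1, CCNB2) activate CDK1, AURKA, AURKB and PLK1 are mitotic kinases, BUB1 and BUB1B act in the spindle checkpoint, and CENPE, CENPF and KIF11 work at kinetochores or on the spindle. In B cell development, proliferation is known to be strong in large pre-B cells, which display the pre-B receptor built with VPREB1. It then stops in small pre-B cells, which use RAG1 to rearrange light chain genes. Germinal centre B cells of secondary lymphoid organs proliferate again.

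After filtering, 13267 mouse cells, 4029 and 4269 cells of the meninges channels and 5839 and 6783 cells of the spleen channels were used. The libraries held 128.09 M unique molecular identifiers (UMIs, counted molecules) in mouse, 19.02 and 19.76 M in macaque meninges and 20.11 and 21.99 M in spleen. Median UMIs per barcode were 6309 in mouse, 4096 and 4034 in meninges and 2397 and 2665.5 in spleen. Any pair of libraries shared 4 to 28 cell barcodes, at most 0.417% of a library. The labels give the sort with the marker names CD45 and CD11b, and CD3 in macaque, each followed by a dash. PTPRC, which encodes CD45, had a UMI in 82.1% of mouse cells and in 85.1 to 87.9% of the cells of each macaque library. CD3D, a T cell receptor component, had a UMI in 31.7 and 32.0% of meningeal and 18.98 and 20.96% of splenic macaque cells. The libraries were therefore described by the genes in them and not by the sort.

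Cells were placed in B, T/NK, myeloid and other lineages by marker UMIs. B-lineage cells were then gated on the presence or absence of 5 genes. The gates named DNTT, VPREB1 and RAG1 hold cells with that gene, without MS4A1 (CD20) or RGS13 and without the gate genes named before it in this list. The early-MS4A1 gate holds MS4A1-positive cells with any of DNTT, VPREB1 or RAG1. The GC-type gate holds RGS13-positive cells without DNTT or RAG1, RGS13 being a germinal centre gene. The MS4A1-only gate holds cells with MS4A1 alone among the 5. B-lineage cells with none of the 5 lie outside these named gates. The VPREB1 gate held 1135 mouse cells and 204 and 172 macaque meningeal cells, against 2 in each spleen channel. The RAG1 gate held 2539 mouse and 79 and 71 macaque meningeal cells. DNTT and RAG1 were not listed in the spleen tables. The GC-type gate held 41 and 43 meningeal and 430 and 484 splenic cells. The MS4A1-only gate held 1417 and 1563 meningeal and 4339 and 5130 splenic cells. The DNTT gate held only 16 and 25 macaque cells and is given as values without a test. Levels below are CPM, the UMIs of a gene or list scaled to the same total of UMIs in every gate and library. They are compared for the same gene or list across gates and libraries, and not between genes. A lower level can come from fewer cycling cells or from less RNA per cell, and these cannot be told apart in a sum.

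Both lists were highest in the VPREB1 gate of the mouse, and the RAG1 gate lay further below it in replication than in mitosis genes. Summed over the 17 replication genes, the level was 2797 CPM in the DNTT gate, 4243 in the VPREB1 gate, 1292 in the RAG1 gate and 730 in the MS4A1-only gate. The 19 mitosis genes summed to 3527, 4959, 3092 and 771 CPM in the same order. The log2 ratio of mitosis to replication was 0.33 in the DNTT gate and 0.22 in the VPREB1 gate, and it was 1.26 in the RAG1 gate (exact 95% interval 1.24 to 1.28, counting error only). The 10% of RAG1-gate cells with the most UMIs of a list held 80.2% of the replication UMIs and 89.5% of the mitosis UMIs, so both sums rested on a minority of cells. In the VPREB1 gate the corresponding cells held 41.9 and 46.8%.

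**Figure D1:**
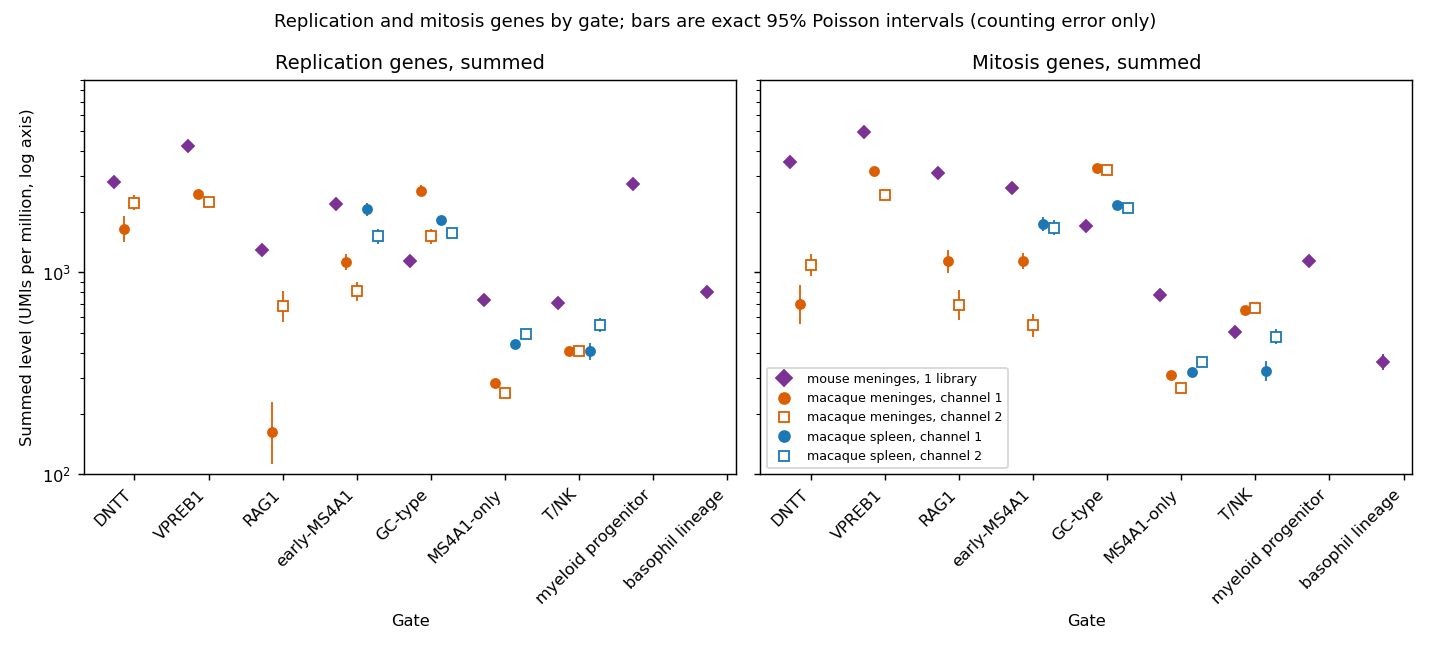
Summed level of the replication genes (left) and the mitosis genes (right) in CPM on a log axis, by gate on the x axis; each point is 1 library and bars are exact 95% Poisson intervals that cover counting error only. In the mouse, the RAG1 gate lies at 1292 CPM for replication and 3092 for mitosis, and in macaque the highest meningeal mitosis sums, 3271 and 3208, are in the GC-type gate.

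In the mouse, all 17 replication genes were higher in the VPREB1 gate than in the RAG1 gate, by 2.50 to 4.96 times (median 3.67). All 19 mitosis genes were also higher there, but only by 1.10 to 2.07 times (median 1.73), so the ranges of the lists did not overlap. This is a description of 1 library, and no test is possible. Folds over all mouse genes were not computed, for this or the other comparisons of mouse gates. The counts of members higher or lower in a mouse gate therefore have no background to be set against. The folds of replication genes were led by Cdca7, an E2F- and MYC-responsive gene, at 154 CPM in the VPREB1 gate (95% Poisson interval 148 to 160) and 31.1 (28.4 to 33.9) in the RAG1 gate. Chek1, the kinase that guards stalled replication forks, stood at 39.3 against 8.45 CPM, a fold of 4.65. Cdc6, the helicase loader, stood at 52.9 against 12.8 CPM, a fold of 4.14. Mcm7 had the smallest fold of the list, 2.50, with 286 against 115 CPM.

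Mitosis genes in the same mouse cells were led by the checkpoint kinases Bub1, with 50.0 against 24.1 CPM, and Bub1b, with 114 against 54.9 CPM, both at a fold of 2.07. Top2a, which untangles chromosomes, stood at 874 CPM in the VPREB1 gate and 438 CPM in the RAG1 gate, a fold of 1.99. Mki67, the standard proliferation marker, stood at 632 and 344 CPM, and Pcna at 474 and 164 CPM. Ccnb1, the cyclin that drives entry into mitosis, stood at 133 and 89.2 CPM. Cenpa, the histone variant of centromeres, was the closest to even at 422 and 384 CPM, and Ube2c, an enzyme of the anaphase-promoting pathway, stood at 496 and 383 CPM. Per gene, 16 of 17 replication genes and 19 of 19 mitosis genes had their highest level of the named mouse B gates in the VPREB1 gate. The exception was Tyms, at 128 CPM in the DNTT gate and 115 CPM in the VPREB1 gate. Against the early-MS4A1 gate, the RAG1 gate was lower in all 17 replication genes and higher in 17 of 19 mitosis genes. Cells of the VPREB1 gate had a median of 9193 UMIs and those of the RAG1 gate 5381.

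In the mm10 build of the mouse table, GENCODE vM21 places Cdca7 at chr2:72476159-72486893 on the plus strand, Bub1 at chr2:127801122-127831865 on the minus strand, Mki67 at chr7:135689784-135716361 on the minus strand and Pcna at chr2:132249162-132253314 on the minus strand. Each is annotated as a protein-coding gene. Counts are of 3′ ends over the whole gene and are not resolved by exon.

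Other mouse cell cycle genes gave medians in the same order. Of 42 further replication genes the folds between the VPREB1 and RAG1 gates ran from 1.14 to 5.20 (median 3.08), and of 45 further mitosis genes with enough UMIs from 0.91 to 2.90 (median 1.66). Among 11 G1 and E2F regulators the folds ran from 0.71 to 5.16 (median 2.57). Cdk6, a kinase of the G1 phase, stood at 161 against 31.1 CPM and Ccnd2, a D-type cyclin, at 58.9 against 11.6 CPM. Ccnd1 and E2f2 were lower in the VPREB1 gate. Of 18 inhibitors and quiescence genes the folds ran from 0.35 to 2.31 (median 0.83). Rbl1, Cdkn2c, Cdkn1a, Lin54, E2f4 and E2f5 were higher in the VPREB1 gate and the others lower. The antiproliferative genes Btg1 and Btg2 stood at 1153 against 2946 CPM and 404 against 1148 CPM, and the CDK inhibitor Cdkn1b at 126 against 291 CPM.

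In macaque meninges, most members were also higher in the VPREB1 gate than in the RAG1 gate. Of 33 members tested, 25 were called higher (adjusted p under 0.05 in the quasi-likelihood test of edgeR, adjusted by Benjamini and Hochberg's method over all genes tested) and 0 lower. Over all 9534 genes of this fit, 11.4% were called, 7.0% higher and 4.45% lower. The called members were 14 of 16 replication and 11 of 17 mitosis genes. The median log2 difference was 2.83 for replication and 1.83 for mitosis genes, against 0.03 for all genes tested. DESeq2 called 20 of the same 33 members, all higher. With DESeq2's size factors in edgeR, 534 genes were higher and 562 lower, in place of 667 and 424, while the members called stayed at 25. The summed levels per channel were 2456 and 2238 CPM for replication and 3178 and 2407 CPM for mitosis in the VPREB1 gate. In the RAG1 gate they were 163 and 681 CPM for replication and 1136 and 691 CPM for mitosis.

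TYMS, the thymidylate synthase, was at 309 and 225 CPM in the VPREB1 gate and at 9.59 and 51.2 CPM in the RAG1 gate, a log2 difference of 3.26 ± 0.49 (SE, edgeR adjusted p = 4.97e-06). PCLAF was at 217 and 179 against 0 and 46.1 CPM (log2 difference 3.24 ± 0.60, edgeR adjusted p = 0.000134). RRM2, the regulated subunit of ribonucleotide reductase, was at 229 and 190 against 0 and 51.2 CPM (3.17 ± 0.61, edgeR adjusted p = 0.000264). In each of these genes the channels of the gates did not overlap, as the rule for naming them required, and RAG1-gate channel 1 was the lowest value. The RAG1 gate held only 0.209 and 0.195 M UMIs, so its low CPM values here and below rest on few UMIs per gene. PCNA was at 356 and 359 against 43.1 and 108 CPM (log2 difference 2.36 ± 0.34, edgeR adjusted p = 2.91e-06). The replication genes that were not called were MCM2, at 37.57 and 49.27 against 23.97 and 30.72 CPM, and GINS2, at 9.59 and 9.64 CPM against no UMI in either RAG1-gate channel.

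MKI67 was at 831 and 673 CPM in the VPREB1 gate and at 182 and 169 CPM in the RAG1 gate, a log2 difference of 2.19 ± 0.28 (edgeR adjusted p = 2.5e-07). NUSAP1, a spindle microtubule protein, was at 379 and 216 against 95.9 and 66.6 CPM (log2 difference 1.96 ± 0.35, edgeR adjusted p = 7.33e-05). CENPE, a kinetochore motor, was at 101.5 and 95.3 against 43.1 and 15.4 CPM (1.82 ± 0.53, edgeR adjusted p = 0.0169). The channels of these genes did not overlap between gates, as the rule for naming them required. TOP2A was at 561 and 356 against 268 and 143 CPM (1.24 ± 0.27, edgeR adjusted p = 0.00116). CCNB1 was at 64.0 and 51.4 against 33.6 and 15.4 CPM and was not called (edgeR adjusted p = 0.12). The other mitosis genes not called were CCNB2, AURKA, AURKB, BUB1 and PLK1, with log2 differences from 1.42 to 1.94.

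**Figure D2:**
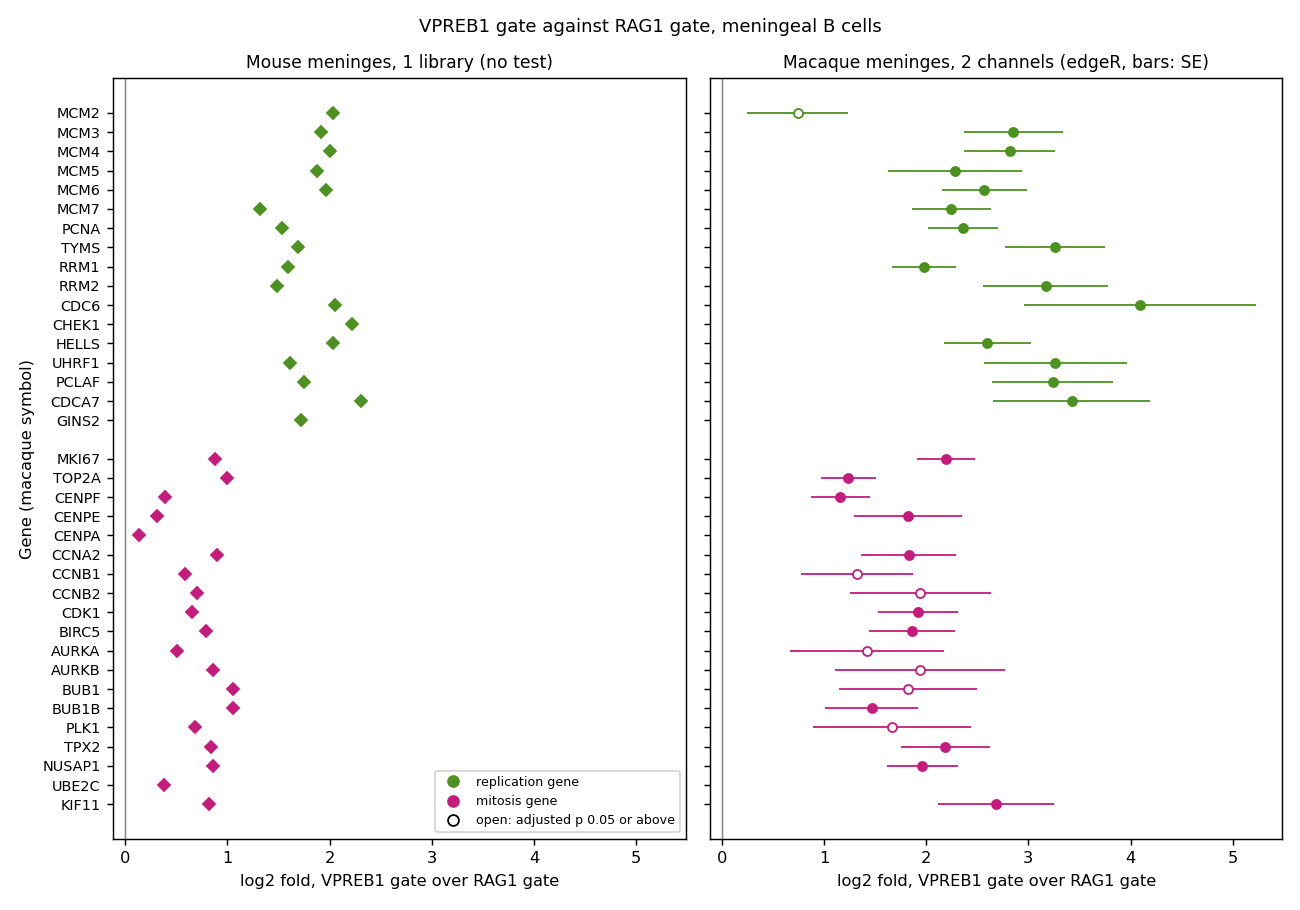
log2 fold of each member between the VPREB1 gate and the RAG1 gate, in the single mouse library (left, no test) and in the macaque meninges channels (right, edgeR log2 difference, bars are 1 SE, n = 2 channels, open points not called). GINS2 is left out on the right because the RAG1 gate has no UMI of it. In the mouse all replication genes, from 2.50-fold, lie to the right of all mitosis genes, which end at 2.07-fold; in macaque the points of the lists overlap.

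The mitosis-to-replication ratio of the macaque RAG1 gate was not stable between channels. Its log2 value was 2.80 in channel 1 and 0.02 in channel 2, and it was 0.37 and 0.10 in the VPREB1 gate. The RAG1 gate of channel 1 held 34 replication UMIs in all, and the 10% of its cells with the most mitosis UMIs held 95.8% of its mitosis UMIs (92.6% in channel 2). The cells also differed in depth: median UMIs were 3745 and 3381.5 in the VPREB1 gate and 2500 and 2520 in the RAG1 gate. The part of depth in these differences was not tested. The thinned shares given below do not test it, because the gates were set on all UMIs of a cell before thinning. A larger replication than mitosis difference, seen per gene in the mouse, is therefore not a stable measurement in these macaque channels.

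Of 36 further replication genes tested in the macaque VPREB1 and RAG1 gates, 21 were higher and 0 lower, and of 44 further mitosis genes 23 were higher and 0 lower. CDT1, which loads the MCM ring with CDC6, was at 149.5 and 147 CPM in the VPREB1 gate and at 0 and 5.12 CPM in the RAG1 gate (edgeR adjusted p = 2.36e-07). Of 7 G1 and E2F regulators tested, 4 were higher. CCND3, the D-type cyclin known for pre-B cell expansion, was at 310 and 299 against 125 and 81.9 CPM (log2 difference 1.65 ± 0.21, edgeR adjusted p = 1.72e-07). Of 17 inhibitors and quiescence genes, 2 were lower and 1 was higher. BTG1 was at 1990 and 2125 against 4506 and 4050 CPM (log2 difference -0.97 ± 0.12, edgeR adjusted p = 7.28e-08) and BTG2 at 1352 and 1494 against 2162 and 2294 CPM. The inhibitor CDKN2C was higher in the VPREB1 gate, at 81.5 and 49.3 against 33.6 and 25.6 CPM (edgeR adjusted p = 0.0439).

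The DNTT gate of macaque meninges, with 16 and 25 cells, held 1644 and 2213 CPM of replication genes and 699 and 1094 CPM of mitosis genes. Its log2 ratio of mitosis to replication, -1.24 and -1.02, was the opposite in sign to that of the VPREB1 gate in the same channels and to that of the mouse DNTT gate, 0.33. Without CENPF, an alternative chosen after the data were seen, the ratio was -1.38 and -1.20 in this gate and 0.19 and -0.17 in the VPREB1 gate, so in channel 2 the signs then no longer differed. PCNA stood at 230 and 268 CPM and MKI67 at 392 and 474 CPM in this gate. TOP2A stood at 42.6 and 92.2 CPM, and CCNB1 at 0 and 16.8 CPM. The mouse DNTT gate, with 937 cells, held 321 CPM of Pcna, 414 of Mki67, 567 of Top2a and 117 of Ccnb1. With so few macaque cells these values carry no test.

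Counted per cell, replication and mitosis UMIs lay largely in the same VPREB1-gate cells. Each cell was thinned to 1000 UMIs, and a cell was called positive for a list with at least 2 of its UMIs. In the mouse VPREB1 gate 41.0% of 1133 cells were positive for replication and 44.8% for mitosis, and 33.1% were positive for both (exact binomial interval 30.4 to 35.9%). In the mouse RAG1 gate the shares were 10.6% for replication and 15.8% for mitosis, with 6.03% positive for both. In macaque meninges the VPREB1 gate had 18.2 and 14.5% replication-positive cells and the same shares of mitosis-positive cells, with 13.8 and 9.88% positive for both. The RAG1 gate had 1.33 and 2.94% replication-positive and 4.00 and 7.35% mitosis-positive cells. Without thinning, the macaque VPREB1 shares were 30.9 and 30.2% for replication and 34.3 and 24.4% for mitosis. Cells of the VPREB1 gate positive for either list had median depths of 12727 and 12300 UMIs before thinning, and cells positive for neither had 3136 and 3154.

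The shares of the GC-type gate were also well above those of the MS4A1-only gate in macaque. In spleen, 21.2 and 19.2% of its thinned cells were replication-positive and 24.7 and 23.8% mitosis-positive. In meninges, with 40 and 42 cells left, the shares were 32.5 and 14.3% for replication and 30.0 and 26.2% for mitosis, so the channels differed from each other by more than the spleen channels did. In the MS4A1-only gate the shares were 2.73 and 2.97% for replication in meninges and 4.80 and 5.22% in spleen. Cells under 1000 UMIs were left out: 99 and 117 meningeal and 1528 and 1146 splenic cells of that gate.

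**Figure D3:**
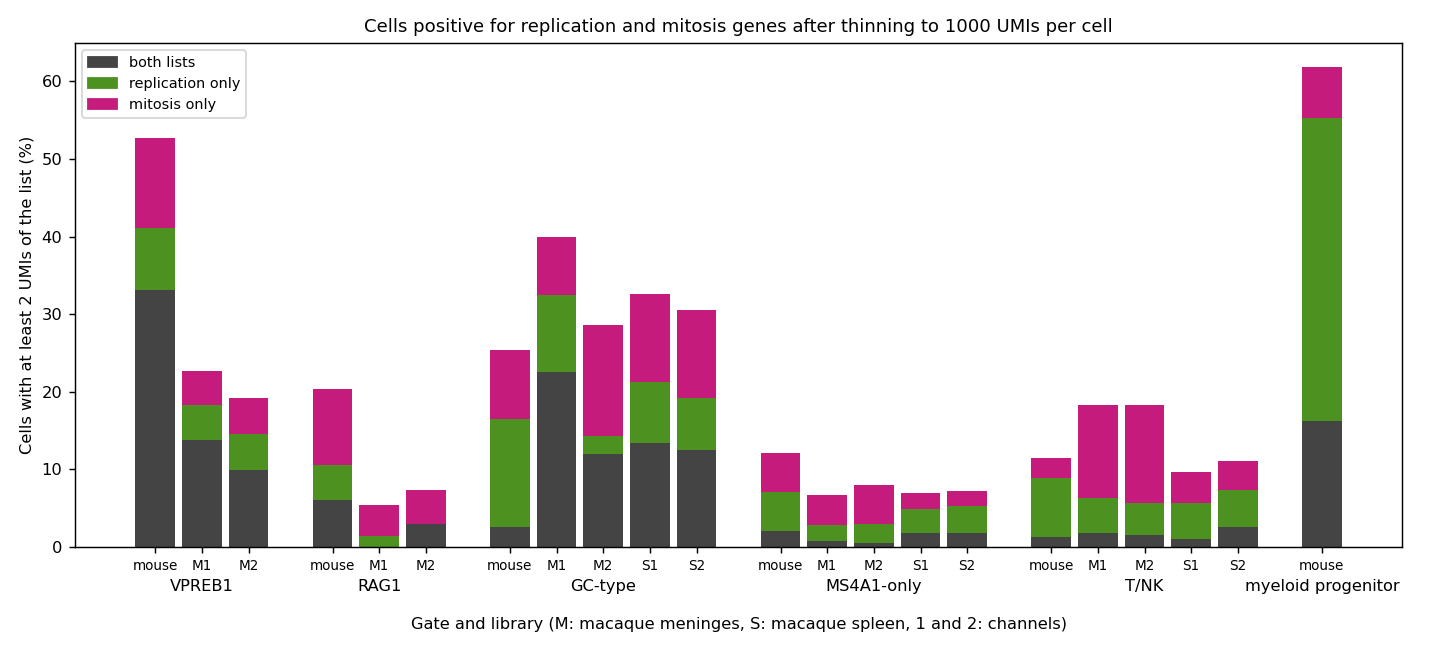
Share of cells with at least 2 UMIs of the replication list, the mitosis list or both after thinning each cell to 1000 UMIs (y axis, %), by gate and library (x axis). In the VPREB1 gate the double-positive part is the largest, 33.1% in mouse and 13.8 and 9.88% in macaque. In every other bar except the GC-type gate of meninges channel 1, most of the positive cells are positive for 1 list only. The mitosis-positive part of the meningeal T/NK channels rests largely on CENPF.

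The MS4A1-only gate of macaque meninges served as the comparison for mature B cells, and every tested member was lower there than in the VPREB1 gate. All 33 members tested were called (22.4% of all 9534 genes were called higher and 24.6% lower, 47.0% in all), with median log2 differences of 2.87 for replication and 4.19 for mitosis genes. TYMS was at 309 and 225 CPM against 7.19 and 3.34 CPM (log2 difference 5.41 ± 0.26, edgeR adjusted p = 1.05e-21). RRM2 was at 229 and 190 against 7.34 and 4.01 CPM (4.95 ± 0.31), and PCLAF at 217 and 179 against 8.35 and 2.80 CPM (4.91 ± 0.29). The gates were apart in every channel for each of these, as the rule for naming them required.

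MKI67 was at 831 and 673 CPM in the VPREB1 gate and at 19.1 and 11.8 CPM in the MS4A1-only gate (log2 difference 5.36 ± 0.21, edgeR adjusted p = 1.56e-24). NUSAP1 was at 379 and 216 against 10.5 and 7.21 CPM (4.81 ± 0.22) and TOP2A at 561 and 356 against 21.7 and 13.1 CPM (4.47 ± 0.20). CCNB1 was at 64.0 and 51.4 against 11.1 and 8.54 CPM, and PCNA at 356 and 359 against 50.7 and 45.8 CPM. The smallest difference was that of CENPF, a large kinetochore protein, at 382 and 418 against 202 and 180 CPM (0.81 ± 0.17, edgeR adjusted p = 0.000112). CENPF is taken up again below.

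In spleen, all 33 members tested were higher in the GC-type gate than in the MS4A1-only gate, against 25.8% of all genes called higher and 25.5% lower (51.4% in all). The median log2 difference was 1.97 for replication and 2.66 for mitosis genes. Among replication genes, PCLAF was at 197 and 152 CPM against 22.5 and 31.6 CPM (2.66 ± 0.20, edgeR adjusted p = 2.52e-15), TYMS at 144 and 110 against 16.4 and 23.8 CPM, and RRM2 at 151 and 131 against 21.7 and 29.2 CPM. Among mitosis genes, TOP2A was at 207 and 245 against 30.2 and 34.4 CPM (2.80 ± 0.17, edgeR adjusted p = 5.35e-18), CCNB1 at 212 and 178 against 23.9 and 33.5 CPM, and MKI67 at 496 and 493 against 72.8 and 80.7 CPM. PCNA was at 215 and 195 against 53.2 and 56.8 CPM. HELLS, a chromatin remodeller that works with CDCA7, had the smallest difference, at 177 and 142 against 82.3 and 80.7 CPM (0.96 ± 0.14).

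GC-type cells of meninges and spleen were then set against each other. Of 32 members tested, 2 were higher in meninges and 0 lower (0.942% of 7962 genes were called, 0.879% higher and 0.0628% lower). BIRC5, survivin, a subunit of the chromosomal passenger complex, was at 191 and 172 CPM in meninges and 94.8 and 79.3 CPM in spleen (log2 difference 1.02 ± 0.17, edgeR adjusted p = 0.00919). MKI67 was at 903 and 684 against 496 and 493 CPM (0.65 ± 0.13, edgeR adjusted p = 0.0321). The tissues did not overlap for either gene, as the rule for naming them required. The median log2 difference was 0.64 for mitosis genes, 0.19 for replication genes and 0.00 for all genes tested. TOP2A, at 350 and 332 against 207 and 245 CPM, was not called (edgeR adjusted p = 0.0916), nor was CCNB1, at 181 and 192 against 212 and 178 CPM.

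The replication genes of the meningeal GC-type gate were uneven between channels. PCNA was at 309 and 144 CPM there, which spans the 215 and 195 CPM of spleen (not called, but called higher without meninges channel 2, at a log2 difference of 0.56), and RRM2 at 274 and 113 CPM, which spans 151 and 131 CPM. The gate held 41 and 43 meningeal cells, and the calls depended on single channels. Without meninges channel 1 the members called were 7, without meninges channel 2 they were 10, without spleen channel 1 they were 1 and without spleen channel 2 they were 0. Of the further mitosis genes, 5 of 44 were higher in meninges, among them NDC80, a kinetochore protein, at 106 and 53.5 against 24.9 and 29.6 CPM (edgeR adjusted p = 0.0321), DLGAP5 and GTSE1. None of 35 further replication genes was called.

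In the MS4A1-only gate, cell cycle genes were lower in meninges than in spleen. Of 32 members tested, 28 were lower and 1, CENPF, higher, where 40.0% of all 11009 genes were called, 21.5% higher and 18.5% lower. The lower members were 12 of 15 replication and 16 of 17 mitosis genes, with median log2 differences of -0.88 and -1.33 against -0.01 for all genes. MCM3 was at 23.3 and 14.3 CPM in meninges and 40.9 and 44.8 CPM in spleen (-1.09 ± 0.16, edgeR adjusted p = 6.03e-05). MCM7 was at 29.6 and 24.2 against 49.7 and 52.1 CPM (-0.81 ± 0.12), and HELLS at 48.3 and 52.3 against 82.3 and 80.7 CPM (-0.58 ± 0.09). The tissues did not overlap for these helicase and chromatin genes, as the rule for naming them required.

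MKI67 in the same gate was at 19.1 and 11.8 CPM in meninges and 72.8 and 80.7 CPM in spleen (log2 difference -2.21 ± 0.16, edgeR adjusted p = 1.7e-08). TOP2A was at 21.7 and 13.1 against 30.2 and 34.4 CPM and CCNB1 at 11.1 and 8.54 against 23.9 and 33.5 CPM, both lower (edgeR adjusted p = 0.00157 and 1.69e-05). PCNA, at 50.7 and 45.8 against 53.2 and 56.8 CPM, and RRM1, the large subunit of ribonucleotide reductase, at 51.4 and 50.3 against 43.6 and 48.7 CPM, were not called.

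Fewer members were called lower when cells with germinal centre genes were left out of the gate. Such genes moved with the tissue: BCL6, MYBL1, ELL3, LMO2 and MEF2B together stood at 101.6 and 106.5 CPM in meningeal and 241 and 262 CPM in splenic MS4A1-only cells. MEF2B had no UMI in any of the 4 channels. The list was chosen after the data were seen. Without any cell that had a UMI of these genes, 1013 and 1139 meningeal and 2937 and 3481 splenic cells remained. Their median depth was 4596 and 4545 UMIs in meninges and 1152 and 2150 in spleen, against 4711, 4704, 2575 and 2717.5 in the whole gate, and the part of depth was not tested. CDC6, UHRF1, CCNB2, BIRC5, AURKB, BUB1 and PLK1, tested in the whole gate, had too few UMIs to be tested here. Of 25 members then tested, 5 were higher and 5 lower in meninges. Of all genes, 39.4% were called, 21.3% higher and 18.0% lower, so the members' share was near the background. MKI67 was then at 4.03 and 4.85 against 11.99 and 6.014 CPM (log2 difference -0.86 ± 0.30, edgeR adjusted p = 0.0245), a smaller difference than in the whole gate. PCLAF was at 3.18 and 0.78 against 4.35 and 1.23 CPM and was not called. TOP2A turned to 14.2 and 12.6 against 6.19 and 4.12 CPM (1.51 ± 0.23, called higher), and PCNA to 49.6 and 41.2 against 32.7 and 28.3 CPM (0.70 ± 0.13, called higher). RRM1, CENPE and CENPF were also called higher, and CCNA2, BUB1B, MCM7 and HELLS remained lower. The median log2 difference was -0.25 for replication genes and 0.33 for mitosis genes. The part of germinal centre cells in this change was not tested.

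**Figure D4:**
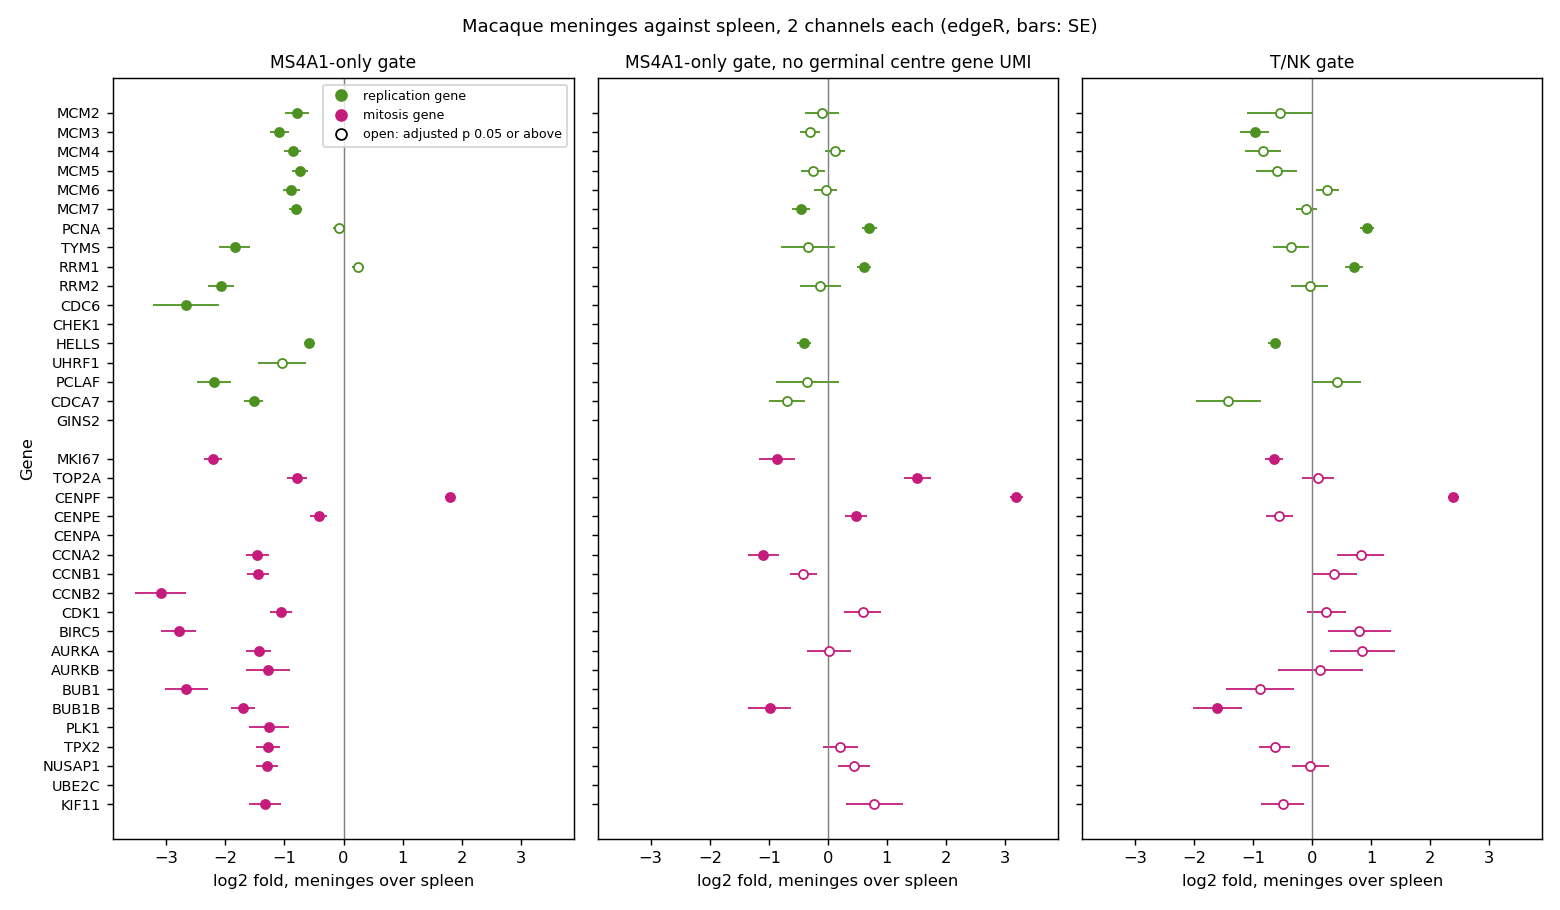
log2 difference between macaque meninges and spleen for each tested member (x axis, edgeR, bars are 1 SE, n = 2 channels per tissue, open points not called) in the MS4A1-only gate, in that gate without cells that have a germinal centre gene UMI, and in the T/NK gate. On the left 28 members lie below 0 and are called; in the middle 5 do; CENPF lies at 1.81, 3.19 and 2.39 in the 3 panels.

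The difference between GC-type and MS4A1-only cells was itself compared between the tissues with an interaction term. It uses the same sums as the tissue comparisons of each gate above, so it is not a separate result. Of 33 members tested, 24 had a larger difference in meninges and 1, CENPF, a smaller one, against 2.62% and 3.13% of all genes (5.75% in all). These were 8 of 16 replication and 16 of 17 mitosis genes, with median log2 interactions of 1.02 and 2.05. PCLAF (2.75 ± 0.40, edgeR adjusted p = 3.32e-06), RRM2 (2.54 ± 0.44) and TYMS (2.32 ± 0.40) led the replication genes above the expression minimum. MKI67 (2.88 ± 0.28, edgeR adjusted p = 5.19e-10), NUSAP1 (1.78 ± 0.34) and TOP2A (1.38 ± 0.29) led the mitosis genes above the same minimum. Below it, BIRC5 (3.80), CCNB2 (3.63) and BUB1 (3.50) had the largest values of the list. CENPF had an interaction of -1.27 ± 0.25 (edgeR adjusted p = 0.000579). With cells that had a germinal centre gene UMI left out of the MS4A1-only gate as above, 4 of 33 members were called: MKI67, CCNA2 and BUB1B higher and CENPF lower. Of all genes, 5.85% were then called, 1.47% higher and 4.38% lower. DESeq2 called 13 members, all of them higher.

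In T and NK cells the members were called no more often than genes in general. Of 28 members tested in the T/NK gate, 3 were higher in meninges and 4 lower, where 30.2% of all 9456 genes were called, 17.8% higher and 12.4% lower. This share is near the background and is not a result about the members as a group. PCNA was at 110 and 122 CPM in meninges and 70.1 and 73.1 CPM in spleen (log2 difference 0.93 ± 0.12, edgeR adjusted p = 8.52e-05). RRM1 was at 71.2 and 73.0 against 42.2 and 60.6 CPM (0.71 ± 0.15, edgeR adjusted p = 0.00359). CENPF was at 455 and 451 against 93.7 and 110 CPM (2.39 ± 0.10, edgeR adjusted p = 5.11e-09). The tissues did not overlap for these genes, as the rule for naming them required.

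The lower T/NK members were MCM3, HELLS, BUB1B and MKI67. HELLS was at 75.4 and 66.8 CPM in meninges and 131 and 130.2 CPM in spleen (-0.64 ± 0.11, edgeR adjusted p = 0.000771). MCM3 was at 20.2 and 14.4 against 31.9 and 47.3 CPM, and BUB1B at 2.30 and 3.21 against 9.27 and 10.7 CPM. MKI67 was at 70.3 and 76.1 against 104 and 164 CPM (-0.65 ± 0.16, edgeR adjusted p = 0.00929). TOP2A, at 24.3 and 30.1 against 18.5 and 40.1 CPM, and CCNB1, at 6.55 and 8.12 against 6.18 and 7.13 CPM, were not called. Without spleen channel 2, TOP2A was called higher (0.82). Without spleen channel 1, 11 members were called, 3 higher and 8 lower, and without spleen channel 2 there were 5 higher and 1 lower. Summed B cell markers in this gate were 64.1 and 66.3 CPM in meninges and 282 and 290 CPM in spleen, and median depth was 3761 and 3735 against 2178.5 and 1846 UMIs. Their part in these differences was not tested.

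Among other cell cycle genes of the T/NK gate, CKS2, a CDK-binding subunit, was at 94.5 and 91.1 CPM in meninges against 25.8 and 30.3 CPM in spleen (log2 difference 1.96 ± 0.14, edgeR adjusted p = 9.22e-07). PTTG1, securin, was higher by 1.08 and GMNN, geminin, by 1.28 on the log2 scale, while CENPM was lower (-1.04). Of 31 further replication genes tested, 3 were higher and 4 lower, and of 35 further mitosis genes 3 were higher and 5 lower, shares that are near or below the 17.8% and 12.4% of all genes. The CDK inhibitor CDKN1A was higher in meninges in every gate tested between the tissues. CDKN1A was at 99.7 and 98.1 against 7.21 and 4.46 CPM in T/NK cells and 123 and 136 against 6.80 and 8.21 CPM in MS4A1-only cells. In GC-type cells it was at 7.54 and 42.3 against 0.31 and 1.41 CPM. The GC-type gate held only 0.398 and 0.355 M UMIs in meninges and 3.21 and 2.84 M in spleen, so these last values rest on few UMIs. BTG1 was also higher in all of these gates, for example at 2398 and 2318 against 1193 and 1120 CPM in T/NK cells. Of 16 inhibitors and quiescence genes tested in T/NK cells, 5 were higher and 2 lower. In MS4A1-only cells 7 of 17 were higher and 2 lower, against 21.5% and 18.5% of all genes. In GC-type cells 2 of 15 were higher and 0 lower, against 0.879% and 0.0628% of all genes.

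Over all macaque cells, regardless of gate, 22 of 33 members were lower in meninges and 4 higher, where 58.2% of 12441 genes were called, 31.1% higher and 27.1% lower. The tissues hold different shares of each cell type, so these sums mix composition and level. CCNB1 was at 15.9 and 14 CPM in meninges against 54.1 and 50.5 CPM in spleen (log2 difference -1.76 ± 0.09, edgeR adjusted p = 8.07e-07), and MKI67 at 128 and 99.0 against 157 and 143 CPM. MCM3, at 36.8 and 27.6 against 66.3 and 60.9 CPM, PCLAF, at 33.5 and 23.2 against 55.5 and 46.3 CPM, and MCM4, at 31.7 and 27.7 against 49.9 CPM in both spleen channels, were lower as well. The higher members were PCNA (0.36 ± 0.06), RRM1 (0.37 ± 0.06), UHRF1, a reader of hemimethylated DNA (0.56 ± 0.19), and CENPF (1.35 ± 0.06). TOP2A, at 70.5 and 49.7 against 62.2 and 65.4 CPM, was not called, but was called lower without meninges channel 1 (-0.31).

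CENPF did not track the other mitosis genes in macaque meninges. Over all cells it was at 264 and 260 CPM in meninges and 112 and 99.3 CPM in spleen. It had a UMI in 46.3 and 45.6% of meningeal T/NK cells, against 7.88 and 7.94% of splenic T/NK cells. It also had one in 16.8 and 16.5% of meningeal MS4A1-only cells, against 6.91 and 6.80% in spleen. In meningeal RAG1-gate cells it had a UMI in 3.80 and 5.63% and in myeloid cells in 3.29 and 5.62%, so the high share was not shared by all meningeal cells. In mouse T/NK cells Cenpf had a UMI in 4.31%. Within the meningeal T/NK gate, CENPF was at 452 and 457 CPM in cells with a CD3 UMI and at 470 and 426 CPM in cells without one.

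CENPF UMIs in meninges also lay mostly outside the cells that held other mitosis genes. Of all CENPF UMIs in meninges, 29.9 and 28.9% lay in cells with at least 2 UMIs of other mitosis members. For the other mitosis members with at least 20 UMIs the shares were 65.2 to 96.1% in channel 1 and 64.0 to 97.9% in channel 2. UMIs of CENPF were counted towards these shares, which can raise them. In spleen CENPF had 77.98 and 80.35%, within the range of the others (71.9 to 97.5% and 62.2 to 98.1%). In the meningeal VPREB1 gate the CENPF share was 96.7 and 95.6%, and in the meningeal GC-type gate 96.3 and 97.4%. In the meningeal MS4A1-only gate it was 17.3 and 21.5%. Other mitosis members were low there too, with lowest shares of 28.26 and 24.14% and medians of 52.38 and 39.55%. In the meningeal T/NK gate CENPF had 15.9 and 16.3%, where the lowest other members had 37.84 and 50.0%. In the mouse library Cenpf had 98.5%, and the lowest member was Cenpa at 76.2%. The sources used here name no macaque annotation, so whether other transcripts were counted as CENPF was not tested. No antisense or overlapping gene was checked.

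**Figure D5:**
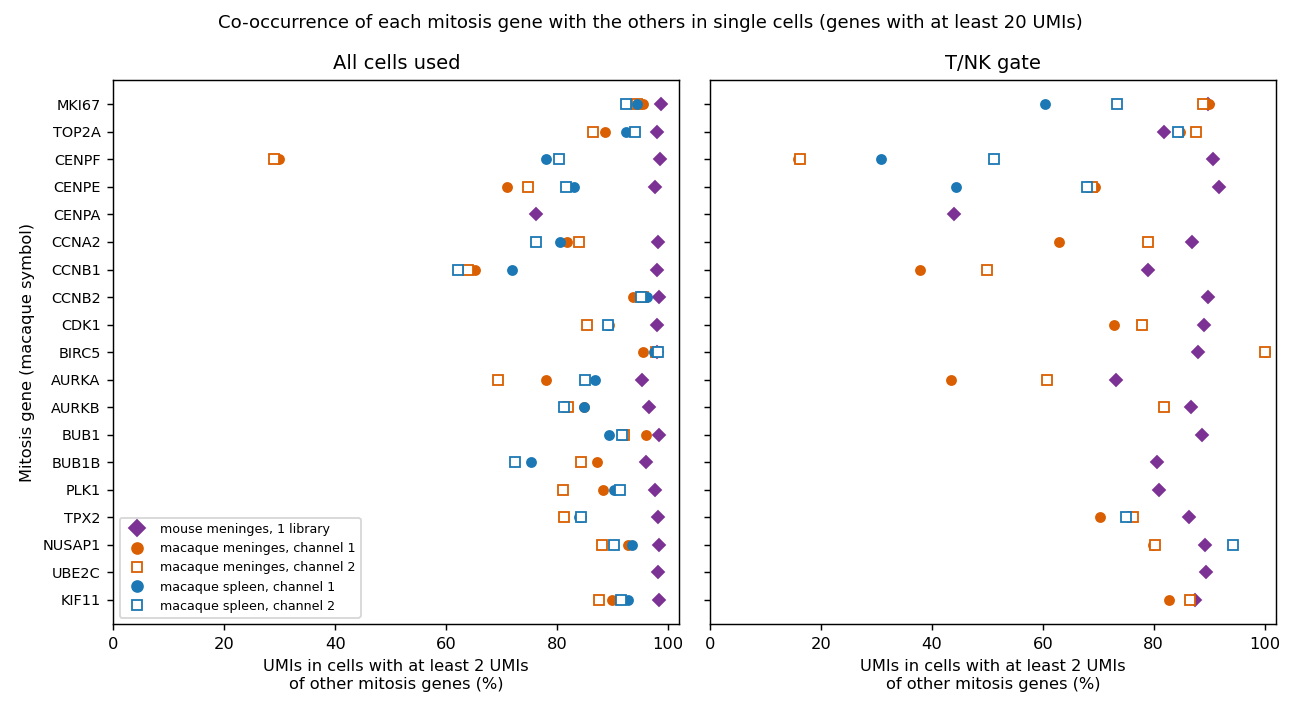
For each mitosis gene with at least 20 UMIs (y axis), the share of its UMIs found in cells with at least 2 UMIs of other mitosis genes (x axis, %), over all cells used (left) and in the T/NK gate (right); each point is 1 library. CENPF lies at 29.9 and 28.9% in the meninges channels, apart from all other genes, and at 98.5% in the mouse. UMIs of CENPF are counted towards the shares of the other genes.

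The summed mitosis level of the meningeal T/NK and MS4A1-only gates rested largely on CENPF, and that of the splenic gates mainly on other genes. With it, the meningeal T/NK gate had 651 and 666 CPM of mitosis genes and the splenic one 326 and 480 CPM. Without it, an alternative chosen after the data were seen, the values were 196 and 215 CPM in meninges and 232 and 370 CPM in spleen. In the MS4A1-only gate the meningeal sums fell from 309 and 266 CPM to 108 and 86.1 CPM, and the splenic sums from 322 and 361 CPM to 261 and 304 CPM. The log2 ratio of mitosis to replication in meningeal T/NK cells turned from positive in both channels to -1.06 and -0.93. The thinned share of mitosis-positive meningeal T/NK cells was 13.7 and 14.2% with CENPF and 1.67 and 1.54% without it.

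Among the other cells of the mouse meninges, 3 of the 4 gates described here held more replication than mitosis UMIs. The 105 cells of the myeloid progenitor gate, in which Mpo had a UMI in 93.3% and Elane in 52.4% of cells, held 2743 CPM of replication and 1134 CPM of mitosis genes (log2 ratio -1.27). Their replication sum was near that of the mouse DNTT gate, 2797 CPM, and their mitosis sum was below that of the RAG1 gate. Cdca7 was at 187 CPM, Mcm3 at 255 and Mcm6 at 304 CPM, each above the VPREB1 gate's 154, 218 and 282 CPM. They are among 5 of 17 replication genes that were higher than in the VPREB1 gate, while 12 were lower. All 19 mitosis genes were lower than in the RAG1 gate, with Mki67 at 127 CPM, Top2a at 197, Ccnb1 at 23.1 and Pcna, a replication gene, at 257 CPM. These cells had a median of 39294 UMIs, by far the deepest of the gates. After thinning, 55.2% were replication-positive and 22.9% mitosis-positive.

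The basophil lineage gate (79 cells) had 804 and 362 CPM, again with more replication than mitosis. Mouse T/NK cells had 702 CPM of replication and 506 CPM of mitosis genes, with Pcna at 141, Mki67 at 65.5, Top2a at 94.8 and Ccnb1 at 6.57 CPM. Against the mouse MS4A1-only gate, T/NK cells were lower in all 19 mitosis genes and higher in 10 of 17 replication genes. Pcna was at 121 CPM, Mki67 at 73.2, Top2a at 125 and Ccnb1 at 11.6 CPM in the MS4A1-only gate. Plasmacytoid dendritic cells (297 cells) had 614 and 683 CPM. In macaque no cell met the myeloid progenitor gate. MPO had a UMI in 0.0993% of the cells of meninges channel 1 and neither MPO nor ELANE was listed in the other libraries. Macaque meningeal myeloid cells had 244 and 277 CPM of replication and 48.8 and 61.9 CPM of mitosis genes, with MKI67 at 8.14 and 4.95 CPM and PCNA at 78.3 and 97.2 CPM.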

How the data were processed

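The authors deposited unnormalized UMI counts of each gene in each barcode. Per the submitters' processing notes they were made with Cell Ranger, and mm10 is the build named for all libraries. The version and the macaque reference are not given in the sources used here. Per the labels' protocols, libraries were 10x 3′-end, with 30000 mouse or 8000 macaque cells loaded per channel. In the macaque tables each gene has UMIs in 3 or more cells; an unlisted gene was counted as 0.

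Filters required 300 genes per cell and allowed 10% of UMIs from mitochondria, and Scrublet (scanpy 1.11.5) removed doublets per library. It marked 0 cells in spleen and was taken as not having worked there. Lineages needed at least 2 marker UMIs and 2 times the next lineage. UMI sums per channel and gate (at least 20 cells) were tested with edgeR 4.0.16 (TMM, filterByExpr, quasi-likelihood, Benjamini-Hochberg over all genes, threshold 0.05). SEs are those implied by the F statistic. Comparisons of gates, the interaction included, used 1 fit with channel as a block. It took the sums of every gate with enough cells in both channels of a tissue, T/NK, myeloid and plasma cells included. The spread was estimated over all of these sums. DESeq2 1.42.0 was an alternative. Scripts were tested on simulated data. Poisson and binomial 95% intervals cover counting error only.

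The members, lists and gates were chosen with earlier results of these data known. Genes named with values are the 3 called replication and 3 called mitosis members with the largest log2 difference, channels apart and mean log2 CPM of at least 5, members against their list's majority, and MKI67, PCNA, TOP2A and CCNB1. The smallest differences, further members and the other lists' genes shown as examples were added to these after their values were seen. A planned search of promoters for motifs was not run, as no promoter sequences were used here.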

Additional observations from a re-analysis of the deposited data

Results flagged for a closer look

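Of all 9534 genes, 5.75% were called in the interaction of gate and tissue, 2.62% higher and 3.13% lower. In 25 of 33 members tested, the difference between GC-type and MS4A1-only cells itself differed between macaque meninges and spleen (edgeR interaction term, log2, meninges minus spleen). Among replication genes the values were 1.01 for MCM3, 0.90 for MCM4, 1.20 for MCM6, 1.04 for MCM7, 2.32 for TYMS, 2.54 for RRM2, 2.75 for PCLAF and 1.70 for CDCA7. Among mitosis genes they were 2.88 for MKI67, 1.38 for TOP2A, 1.07 for CENPE, 2.19 for CCNA2, 1.35 for CCNB1, 3.63 for CCNB2, 1.82 for CDK1, 3.80 for BIRC5 and 1.98 for AURKA. They were 2.40 for AURKB, 3.50 for BUB1, 2.17 for BUB1B, 2.08 for PLK1, 2.05 for TPX2, 1.78 for NUSAP1 and 1.58 for KIF11. CENPF alone among them had a negative value, -1.27. When cells with germinal centre gene UMIs were left out of the MS4A1-only gate, an alternative chosen after the data were seen, 4 members were called. Of all genes, 5.85% were then called, 1.47% higher and 4.38% lower.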

How the results depend on the processing

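The counts of members called in all cells, VPREB1 against RAG1, VPREB1 against MS4A1-only and splenic GC-type against MS4A1-only cells stayed within 1.5 times under every alternative run (23 to 30, 19 to 27, 32 to 33 and 33 to 34 members). For GC-type cells between tissues the members called were 7 without a filter on low counts, 5 with the replicate block, 1 in one fit over all gates and 0 to 10 leaving out 1 channel; the genes called were 246, 113 (replicate block), 35 with 2 UMIs per gate gene, and 29 to 291. In MS4A1-only cells DESeq2 called 2823 genes in place of 4406, and 10 members were called without germinal centre genes. In T/NK cells DESeq2 called 1406 genes in place of 2856, and 11 members without spleen replicate 1 (6 to 11 over all settings). For VPREB1 against RAG1, 369 genes were called without meninges replicate 1 and 685 without replicate 2, in place of 1091. For splenic GC-type cells they were 3170 to 3761 leaving out a channel. For the interaction the members were 13 with DESeq2 and 4 without germinal centre genes, and 296 to 439 genes were called leaving out a channel. The macaque VPREB1 shares, 16.4% for both lists, became 22.6, 31.3, 30.6 and 22.0% for replication and 24.4, 30.7, 29.4 and 21.6% for mitosis with 2000 UMIs per cell, with 1 UMI for a positive cell, without thinning and with 2 UMIs per gate gene. The mean log2 mitosis-to-replication ratio there fell from 0.238 to 0.008 without CENPF. The cause of these moves was not tested.

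Signs turned as follows. Without germinal centre genes the MS4A1-only log2 differences were 0.125 for MCM4, 0.70 for PCNA, 1.51 for TOP2A, 0.48 for CENPE, 0.59 for CDK1, 0.02 for AURKA, 0.21 for TPX2, 0.445 for NUSAP1 and 0.79 for KIF11, and the interactions -0.11 for MCM4, -0.56 for PCNA, -0.96 for TOP2A and -0.54 for KIF11. Leaving out a channel, TOP2A ran from -0.31 to 0.18 in all cells and from -0.33 to 0.82 in T/NK cells, PCNA from -0.58 to 0.56 in GC-type cells, from -0.17 to 0.01 in MS4A1-only cells and from -0.42 to 0.62 in the interaction, and CCNB1 from -0.21 to 0.01 in GC-type cells (0.21 with 2 UMIs per gate gene). Of these values, PCNA, TOP2A and CENPE in MS4A1-only cells without germinal centre genes were called, as were TOP2A in all cells without meninges replicate 1 (-0.31) and in T/NK cells without spleen replicate 2 (0.82), and PCNA in GC-type cells without meninges replicate 2 (0.56); the others were not.

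The labels do not tie equal channel numbers across tissues, and their deviations correlated at -0.19, -0.02, -0.20 and -0.04 over genes in all, GC-type, MS4A1-only and T/NK cells, so the numbers were not taken as pairs. With the replicate block, 26, 5, 29 and 10 members and 7110, 113, 4290 and 3039 genes were called in these groups. The fits over gates gave 25, 33, 33 and 21 members and 1023, 4326, 4556 and 455 genes with no replicate block. The interaction could not be fitted with 2 UMIs per gate gene, nor DNTT against VPREB1, for lack of cells. Meningeal GC-type and RAG1 gates hold few cells, which limits their precision.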
